A study of Caenorhabditis elegans with 2 samples.

Results

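The microRNA (miRNA) genes of Caenorhabditis elegans were placed against the binding sites of the transcription factor EFL-1, one of the E2F proteins of the worm. All 261 genes of biotype miRNA on the 6 nuclear chromosomes of the Ensembl annotation were taken, out of 46890 annotated genes, 19973 of them protein-coding. Each gene's annotated 5' end was measured against the summits of the 4534 peaks of the authors' joint IDR list (IDR, irreproducible discovery rate). That list was made from both replicates together, and the method is meant to keep peaks that rank alike between replicates. A summit within 1000 bp upstream of the 5' end was the criterion, and it used position alone, not peak strength. The immunoprecipitations had been made from whole first-stage (L1) larvae of the strain MT10430, which carries lin-35(n745), with both sexes pooled and all cell types mixed. There was 1 group of 2 samples, labelled biological replicates 2 and 3, each from its own biological sample, so no other genotype or stage was compared. Replicate 2 had 25572 regions in its own list and replicate 3 had 27203, while 21875 were in the joint list that the IDR list was drawn from. By its label the joint list holds background regions as well as peaks. Read totals were not in the lists, so the depth is unknown, and the genotype cannot be checked from peak positions.

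miRNAs are short RNAs cut from hairpins, first in the nucleus by the drsh-1 and pash-1 products and then by Dicer. Loaded into an Argonaute protein, they pair with messenger RNAs chiefly through the seed, bases 2 to 8 of the mature strand, so that genes with the same seed can act on the same messages. EFL-1 binds DNA with its partner DPL-1, and with the pocket protein LIN-35 it belongs to a complex, DREAM, known for keeping cell cycle and germline genes low. The larvae used here carry the lin-35 allele n745, and whether the complex forms in them was not examined. Most miRNA genes are annotated as little more than the hairpin, which lies inside a longer primary transcript, so for them the 5' end used here is not the place where transcription starts. An exception described further on is let-7, whose annotated gene covers its primary transcripts.

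In 2 seed families of 5 or more genes most members lay beside an EFL-1 summit, and their mature strands are given first, chosen for these counts. Of 46 seeds shared by 2 or more miRNA genes, 11 had any gene beside a summit and 35 had none. The sequences were read from RefSeq on build WBcel235, where 260 of the 261 genes had a mature strand, and the capitals mark the seed. The first family shares the seed ACCCGUA and is called the miR-51 family. Of its 6 genes 5 had a summit within 1000 bp upstream, mir-52 to mir-56.
mir-52 5p: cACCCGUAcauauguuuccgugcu
mir-53 5p: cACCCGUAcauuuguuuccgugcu
mir-54 3p: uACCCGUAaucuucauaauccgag
mir-55 3p: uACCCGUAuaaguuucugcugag
mir-56 3p: uACCCGUAauguuuccgcugag
mir-51 5p: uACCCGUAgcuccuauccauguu

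The second family shares the seed AUGACAC, and 4 of its 5 genes, all in 1 cluster, lay downstream of a single summit. The fifth, mir-63, is on another chromosome.
mir-229 5p: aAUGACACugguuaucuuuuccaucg
mir-64 5p: uAUGACACugaagcguuaccgaa
mir-66 5p: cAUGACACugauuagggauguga
mir-63 3p: uAUGACACugaagcgaguuggaaa

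Other mature strands shown for genes beside a summit are those of mir-80 and mir-58a, of the pair mir-239a and mir-239b, and of mir-228 and mir-124. For contrast, let-7, lin-4 and mir-35 had no summit within 1000 bp upstream.
mir-80 3p: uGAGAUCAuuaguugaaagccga
mir-58a 3p: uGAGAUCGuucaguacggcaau
mir-239a 5p: uUUGUACUacacauagguacugg
mir-239b 5p: uUUGUACUacacaaaaguacug
mir-228 5p: aAUGGCACugcaugaauucacgg
mir-124 3p: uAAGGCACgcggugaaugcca
let-7 5p: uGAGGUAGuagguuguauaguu
lin-4 5p: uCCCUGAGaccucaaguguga
mir-35 3p: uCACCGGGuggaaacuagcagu

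The DNA under 6 of the 17 summits that lie away from any protein-coding 5' end is shown. These were picked to show the patterns counted further on and the miR-51 family, so 5 of the 6 hold a marked pattern, against 6 of the 17. Each stretch is 201 bases of the plus strand of ce11, the same build as WBcel235, centred on the summit. Capitals mark any of 4 spelled-out E2F patterns (TTTCCCGC, TTTGGCGC, TTTCGCGC and TTTGCCGC) and the pattern TATAAA, on either strand, and a stretch with no capitals holds none of them.
mir-229 cluster peak, chrIII:2172071-2172271: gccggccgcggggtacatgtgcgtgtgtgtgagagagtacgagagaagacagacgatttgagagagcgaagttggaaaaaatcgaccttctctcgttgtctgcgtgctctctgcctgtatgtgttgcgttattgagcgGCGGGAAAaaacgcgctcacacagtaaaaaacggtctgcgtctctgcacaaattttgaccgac
mir-54 cluster peak, chrX:13145277-13145477: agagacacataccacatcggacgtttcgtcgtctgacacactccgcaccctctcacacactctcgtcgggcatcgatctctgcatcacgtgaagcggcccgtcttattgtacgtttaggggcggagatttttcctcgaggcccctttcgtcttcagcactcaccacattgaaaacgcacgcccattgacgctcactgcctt
mir-52 nearer peak, chrIV:14033768-14033968: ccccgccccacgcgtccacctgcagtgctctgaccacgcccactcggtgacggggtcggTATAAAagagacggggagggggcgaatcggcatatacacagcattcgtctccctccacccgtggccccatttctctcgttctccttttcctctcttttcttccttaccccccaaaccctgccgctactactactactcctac
mir-239a and mir-239b peak, chrX:11791981-11792181: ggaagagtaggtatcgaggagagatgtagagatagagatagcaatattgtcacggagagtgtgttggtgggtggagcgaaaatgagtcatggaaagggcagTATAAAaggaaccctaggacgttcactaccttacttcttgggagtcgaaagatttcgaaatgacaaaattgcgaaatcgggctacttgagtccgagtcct
mir-80 peak, chrIII:8865502-8865702: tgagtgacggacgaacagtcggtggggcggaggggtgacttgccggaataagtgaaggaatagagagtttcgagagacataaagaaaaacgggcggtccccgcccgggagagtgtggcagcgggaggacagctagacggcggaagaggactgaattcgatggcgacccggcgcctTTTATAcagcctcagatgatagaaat
mir-58a peak, chrIV:3232818-3233018: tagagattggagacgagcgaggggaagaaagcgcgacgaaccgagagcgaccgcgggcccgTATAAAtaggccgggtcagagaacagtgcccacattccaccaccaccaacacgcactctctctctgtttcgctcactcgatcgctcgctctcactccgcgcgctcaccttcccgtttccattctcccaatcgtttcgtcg

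Of the 261 miRNA genes, 35 (13.4%, exact 95% interval 9.52 to 18.2%) had an IDR summit within 1000 bp upstream. The same criterion held for 3443 of the 19973 protein-coding genes (percent called 17.2%) and for 4437 of all 46629 genes other than miRNAs (9.52%). The protein-coding share lies inside the interval of the miRNA share, and the share of all other genes lies at its lower end. On the other side, within 1000 bp downstream of the 5' end, 15 miRNA genes (5.75%) had a summit, against 522 protein-coding genes (2.61%). Of all bases of the 6 chromosomes taken as if each were a 5' end, 4.42% had a summit on the upstream side. These intervals, computed by the Clopper-Pearson method, cover counting error only and treat each gene as separate, which genes of a cluster are not. Counted as 216 loci, with neighbours on the same strand joined over gaps of up to 5000 bp, 30 loci (13.9%) had a member with a summit upstream.

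**Figure D1:**
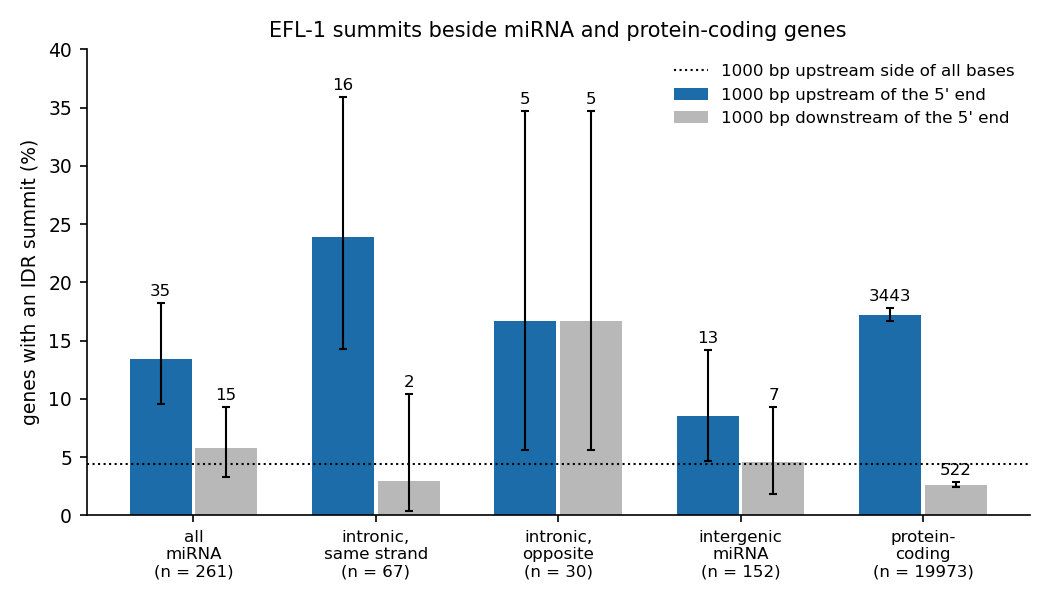
Share of genes with an IDR summit within 1000 bp upstream (blue) or downstream (grey) of the annotated 5' end, in percent, for all miRNA genes, intronic miRNA genes by host strand, intergenic miRNA genes and protein-coding genes. Numbers on the bars count genes, error bars are exact 95% intervals and the dotted line is the share of all bases, 4.42%; the 16 of 67 same-strand intronic genes stand highest, at 23.9%, and the opposite-strand genes have 5 of 30 on either side.

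The genes were then counted by their placement in the genome. Of 97 miRNA genes inside an intron of a protein-coding gene 21 (21.6%, interval 13.9 to 31.2%) had a summit upstream, against 7 (7.22%) with one downstream. Of 152 intergenic miRNA genes, which overlap no protein-coding gene, 13 (8.55%, interval 4.63 to 14.2%) had a summit upstream, against 7 (4.61%) with one downstream. The 2 intervals overlap slightly and no test of the difference was made. Among single bases taken as 5' ends the order was the other way, with 3.49% of intronic bases and 5.13% of intergenic bases having a summit on the upstream side. Within the intronic genes, 16 of the 67 on the strand of their host (23.9%) had a summit upstream and 2 (2.99%) had one downstream. On the strand opposite to the host, the counts were 5 of 30 upstream and 5 of 30 downstream, with no lean to either side. The cluster of mir-54, mir-55 and mir-56 had a summit on both sides and makes up most of each count. The remaining 12 miRNA genes overlap a protein-coding exon, and 1 of them, mir-354, had a summit upstream.

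For the 16 same-strand intronic genes with an upstream summit, that summit lay inside the body of the host in 15 cases. In 4 of the 16 it lay in the window around a 5' end of the host, from 1000 bp upstream to 500 bp downstream, and in the other 12 it did not. The 16 genes lie in 12 hosts, of which 5 had a summit within 1000 bp upstream of their own 5' end, against 18 of all 61 hosts of same-strand miRNAs.

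In bins of 250 bp, miRNA summits were most frequent one bin farther from the 5' end than those of protein-coding genes. Among intronic miRNA genes the bin from 500 to 250 bp upstream held 12 genes (12.4%) and the bin next to the 5' end 4 (4.12%). Intergenic miRNA genes had 7 (4.61%) and 4 (2.63%) in the same bins. Among protein-coding genes these bins held 944 (4.73%) and 1876 genes (9.39%), so that the bin next to the 5' end was the fullest. The median distance of the 35 genes to their nearest upstream summit was 301 bp, from 16 to 937 bp, and 27 lay within 500 bp. Over all 261 miRNA genes the nearest summit in either direction was a median of 5830 bp away, against 7454 bp for protein-coding genes and 9149 bp for all bases. For 86 miRNA genes it was more than 10000 bp away.

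**Figure D2:**
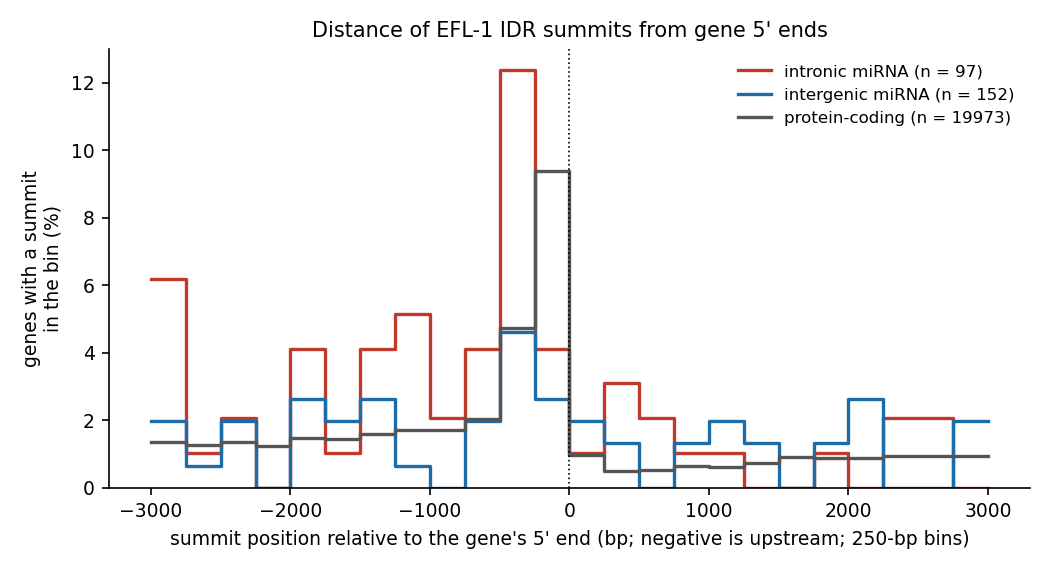
Share of genes with an IDR summit in each 250-bp bin around the annotated 5' end, in percent, for intronic miRNA, intergenic miRNA and protein-coding genes; negative distances are upstream. The miRNA lines are highest from 500 to 250 bp upstream (12.4% of intronic and 4.61% of intergenic genes), and the protein-coding line is highest in the last 250 bp (9.39%).

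The 35 genes drew on 31 peaks, which in strength were ordinary members of the list. Their median signal, on the scale of the authors' peak caller, was 123, against 125 over all 4534 IDR peaks, and their median rank by signal was 2303, where rank 1 is the strongest. Of the 31 peaks 15 were stronger than the median of the list. Each of the 31 peaks overlapped a region of both replicates' own lists. At 28 of them the strongest such region was among the 4534 strongest of both. An IDR list is meant to keep peaks that rank alike between replicates. The overlap may thus follow largely from how the list was made and is not taken as separate support. The same share over all IDR peaks was not counted. The 3 exceptions were weak in 1 replicate: the mir-4920 peak ranked 6465 in replicate 2 and 3289 in replicate 3, the mir-47 peak 3849 and 5057, and the mir-67 peak 4240 and 6481.

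The peaks were of 2 kinds. At 14 of the 31 a protein-coding transcript also began within reach, with the summit between 1000 bp upstream and 500 bp downstream of its 5' end. At the other 17 there was none. Of the peaks beside miRNA genes 45.2% thus had a protein-coding 5' end, against 3125 of all IDR peaks (68.9%). The 31 peaks were chosen for lying beside a miRNA gene, so the lower share is given as a description only. The peaks without a protein-coding 5' end had a median signal of 103 and ranks from 736 to 4248. Those with one had a median signal of 164 and ranks from 92 to 4372. The 4 strongest of the 31 peaks were all of the shared kind.

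**Figure D3:**
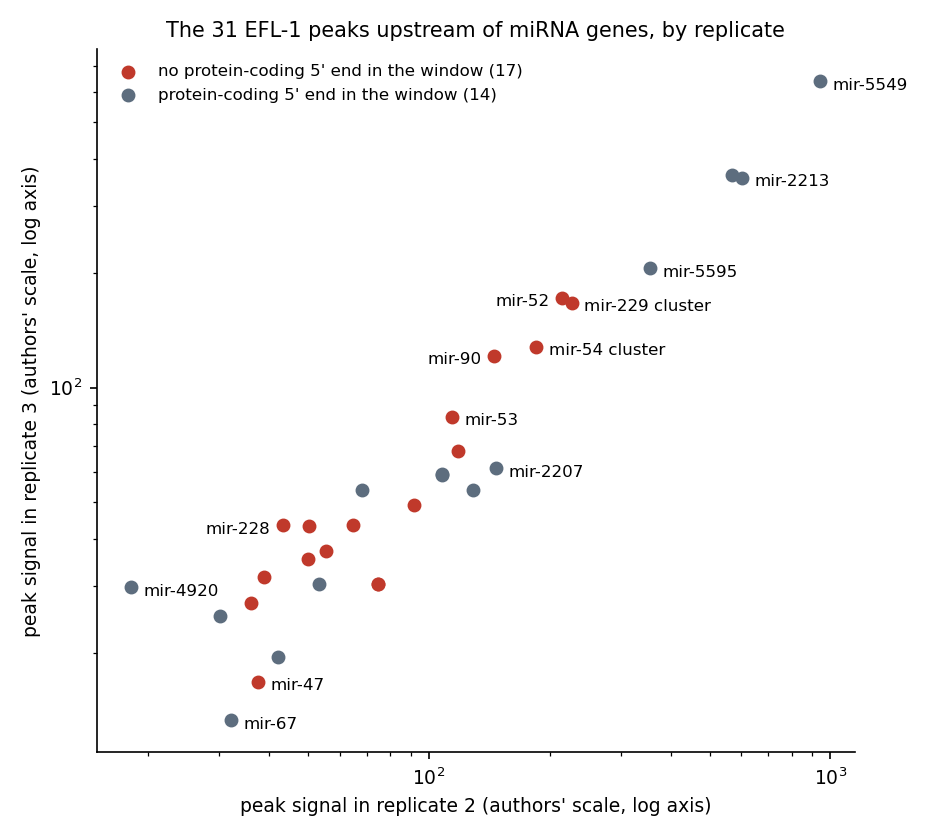
Peak signal in replicate 2 (x) and replicate 3 (y), on the authors' scale with log axes, for the 31 peaks upstream of miRNA genes, coloured by whether a protein-coding 5' end lies in the window. The 4 peaks with the highest signal all have a protein-coding 5' end, and the strongest of the others are those of the mir-229 cluster, mir-52 and the mir-54 cluster.

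Among the 17 unshared peaks the strongest was that of the mir-229 cluster, which lies in an intron of gcn-1, on the strand of its host, on chromosome III. The peak ranked 736 in the IDR list, 776 in replicate 2 (signal 227) and 698 in replicate 3 (signal 167). Its summit lay 281 bp upstream of mir-229 (chrIII:2172452-2172566, plus strand), and 677 and 937 bp upstream of mir-64 and mir-66, with the fourth gene of the cluster between them. The nearest protein-coding 5' end was that of gcn-1, 20226 bp away. This is the only one of the 31 windows with an E2F pattern, a TTTCCCGC on the minus strand, centred 42 bp from the summit.

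The miR-51 family, several of whose genes act together in worm embryos, lay beside 4 peaks of the unshared kind. The cluster of mir-54, mir-55 and mir-56 (chrX:13144691-13145094, minus strand) lies in an intron of F09A5.3 on the X chromosome, on the opposite strand, with 1 summit 283, 453 and 590 bp upstream of the 3 genes. That peak ranked 931, with rank 948 (signal 185) in replicate 2 and rank 920 (signal 128) in replicate 3. An antisense hairpin, mir-55b, is annotated over mir-55 (chrX:13144830-13144919, plus strand), and it had its own weaker summit 272 bp upstream, ranked 3783. That summit lies downstream of mir-54, mir-55 and mir-56, so the cluster had a summit on both sides.

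The intergenic mir-52 (chrIV:14034008-14034107, plus strand) had 2 summits upstream. The farther, at 638 bp, ranked 787, with rank 817 (signal 215) in replicate 2 and rank 671 (signal 172) in replicate 3. The nearer, at 140 bp, ranked 2046, with rank 1945 (signal 92.0) in replicate 2 and rank 2290 (signal 49.0) in replicate 3. The nearest protein-coding 5' end, that of Y37A1B.7, was 9912 bp from the nearer summit. The intergenic mir-53 (chrIV:11027593-11027691, minus strand) had a summit 139 bp upstream, ranked 1555, with rank 1613 (signal 114) in replicate 2 and rank 1413 (signal 83.7) in replicate 3. The sixth gene of the family, mir-51, is downstream of mir-53 in the same cluster, and the same summit was 1718 bp from its 5' end, outside the limit. A region 774 bp upstream of mir-51, of rank 5209 in the joint list with a −log10 q of 3.32, was not an IDR peak.

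**Figure D4:**
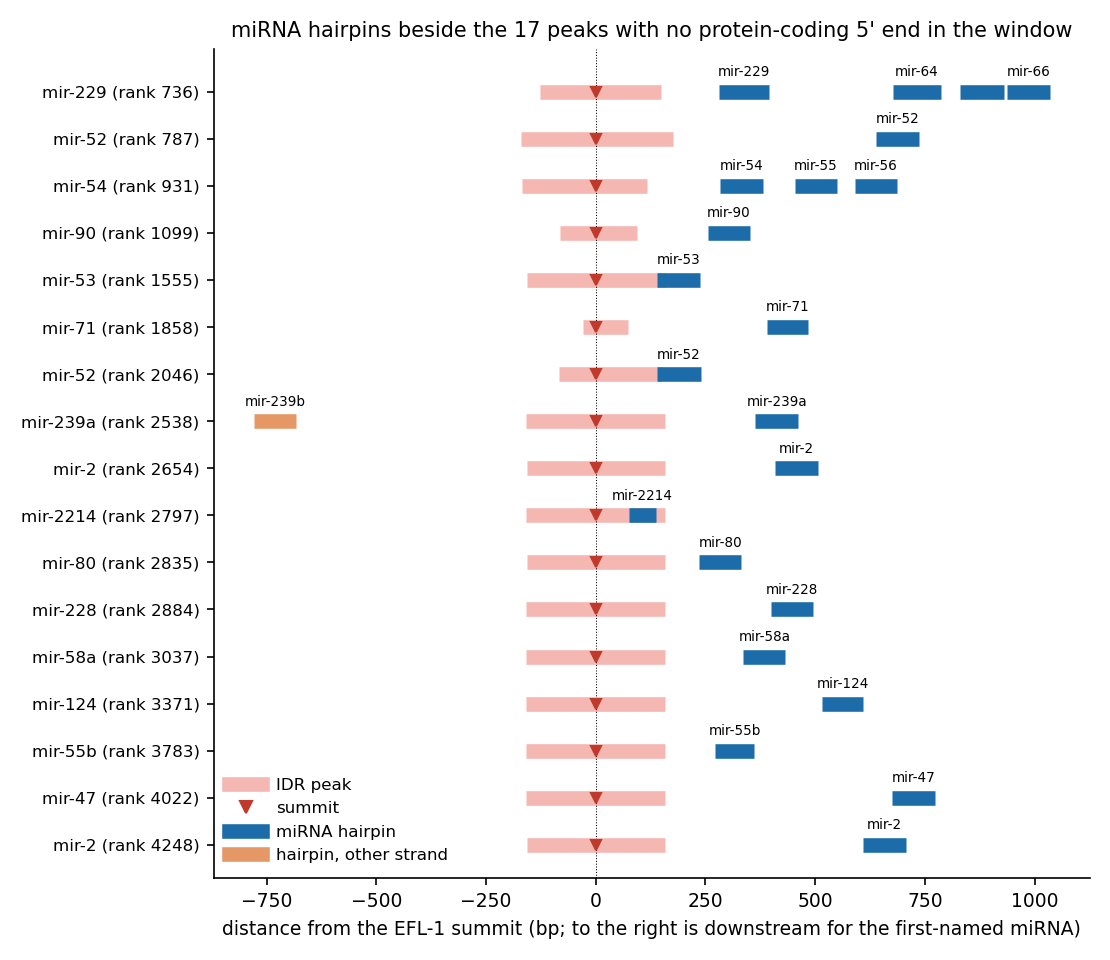
The 17 peaks with no protein-coding 5' end in the window, in order of rank from the top, drawn in bp from the summit, with the transcription of the first-named miRNA to the right. Pink bars are IDR peaks, triangles summits, blue bars miRNA hairpins and the orange bar a hairpin on the other strand; the mir-229 and mir-54 clusters have 4 and 3 hairpins after a single summit (1 of the 4 has no name drawn), and mir-239b lies on the far side of the mir-239a peak.

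Several other miRNA genes lay beside unshared peaks of lower rank. The intergenic genes mir-239a (chrX:11792445-11792542, plus strand) and mir-239b (chrX:11791302-11791399, minus strand), which are transcribed away from each other, had 1 summit between them, 364 bp upstream of mir-239a and 682 bp upstream of mir-239b. It ranked 2538, with signals of 64.5 in replicate 2 and 43.6 in replicate 3, and an annotated snoRNA, C34E11.20, lay within 500 bp of it. The mir-80 summit, 235 bp upstream of the intergenic hairpin (chrIII:8865270-8865367, minus strand), ranked 2835 and had signals of 50.1 in replicate 2 and 43.1 in replicate 3. The mir-58a summit, 336 bp upstream of the hairpin (chrIV:3233254-3233350, plus strand) in an intron of Y67D8A.2, ranked 3037 and had signals of 49.9 in replicate 2 and 35.3 in replicate 3. The mir-58a product is among the most abundant miRNAs of the worm. The intergenic mir-228 (chrIV:5562025-5562122, plus strand), expressed in glia, had a summit at 399 bp ranked 2884, with signals of 43.3 in replicate 2 and 43.4 in replicate 3. The neuronal mir-124 (chrIV:11871738-11871833, plus strand), in an intron of trpa-1, had one at 515 bp ranked 3371, with signals of 38.8 in replicate 2 and 31.8 in replicate 3. Both were weaker than the median of the unshared peaks. The mir-90 summit, 255 bp upstream of the hairpin (chrIII:8873987-8874084, minus strand) in an intron of K01F9.2, was stronger, with rank 1099 and signals of 145 in replicate 2 and 121 in replicate 3. The mir-47 peak, at 676 bp, and the mir-2214 peak, at 75 bp in an intron of B0361.11, ranked 4022 and 2797. All of these peaks except that of mir-90 were weaker than the median of the list.

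The host ppfr-1, a subunit of a protein phosphatase, carries 2 of these genes in its introns, both on its own strand. The summit 391 bp upstream of mir-71, a miRNA known for promoting long life, ranked 1858, with signals of 118 in replicate 2 and 68.1 in replicate 3. Upstream of mir-2 there were 2 summits, at 409 and 609 bp, ranked 2654 and 4248. The strongest region overlapping each of these 2 peaks was the same one in each replicate's list, of signal 74.7 in replicate 2 and 30.5 in replicate 3. Whether a replicate had a second region there was not looked up, so the 2 summits may not be separate. The 5' end of ppfr-1 was 9173 bp from the mir-71 summit.

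At the 14 shared peaks the miRNA gene and a protein-coding gene cannot be told apart as the neighbour of the summit. The strongest lay 16 bp upstream of mir-5549, on chromosome III, with rank 92 and signals of 943 in replicate 2 and 640 in replicate 3. The same summit was 152 bp upstream of rfc-4, which encodes a subunit of the clamp loader of DNA replication, and it lay beside eef-1A.1, a translation elongation factor. The mir-2213 peak, at 396 bp, ranked 219, with signals of 602 in replicate 2 and 356 in replicate 3, and was 344 bp upstream of panl-2. The mir-354 peak, at 854 bp, ranked 236 and lay between ekl-4 and the ribosomal protein gene rps-20, whose exon overlaps mir-354. The mir-5595 peak, at 140 bp, ranked 472, with signals of 355 in replicate 2 and 206 in replicate 3, and was 283 bp upstream of a 5' end of its host nurf-1, a chromatin remodelling factor gene on the other strand. The other 10 were weaker, with ranks from 1414 for mir-2207 to 4372 for mir-67. In order of rank they stood beside npp-5, gmeb-1, F44E7.5, nduf-9, maea-1, gmps-1, nhr-97, E01G4.3, sph-1 and EGAP1.5. The miRNA genes at these 10 peaks were mir-2207, mir-8186-2, mir-253, mir-4936, mir-2218a, mir-2216, mir-5551, mir-4929, mir-4920 and mir-67.

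The 2 kinds of peak went with the number in the miRNA's name, which only roughly follows the order of discovery. Genes with a letter after the number, such as mir-55b, were counted by the number. This split was made after the values were seen. Of 134 genes numbered below 1000, 23 (17.2%) had a summit upstream, and 20 of the 23 had one with no protein-coding 5' end in the window. Of 123 genes numbered 1000 and above, 12 (9.76%) had a summit upstream, and 1 of the 12, mir-2214, had one without a protein-coding 5' end. The 3 genes named let, lin or lsy and 1 more without such a number, F39B1.3, had none. Among the lower numbers the intronic genes carried most of the count, with 15 of 43, against 7 of 86 intergenic genes. The intronic genes of the mir-229 and mir-54 clusters share 1 summit within each cluster but are counted singly here.

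By chromosome, 11 of the 27 miRNA genes on chromosome III (40.7%) had a summit upstream, and 4 of the 11 were the mir-229 cluster. Protein-coding genes were also beside summits more often there than elsewhere, at 26.7%. On the X chromosome, which has the most miRNA genes, 7 of 74 (9.46%) had one, against 10.3% of its protein-coding genes. On chromosome V it was 1 of 28, mir-253, against 11.4% of protein-coding genes.

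The best-known developmental timing miRNAs were not beside an IDR summit. The nearest summit to let-7, on the X chromosome, was 1840 bp upstream of the annotated 5' end of the gene, which is 1732 bp long and covers the primary transcripts. From the 5' end of the 99-bp hairpin it was 2890 bp. That peak, of rank 1018, lay 142 bp from the 5' end of C05G5.2. For lin-4, in an intron of F59G1.4, the nearest upstream summit was 28373 bp away, and the strongest joint region in the 1000 bp upstream, at 358 bp, had rank 8793 and a −log10 q of 0.893. Of the rest of the let-7 family, mir-84 had its nearest summit 2364 bp upstream, and mir-48 and mir-241 had theirs 8570 and 10344 bp downstream. The neuronal lsy-6 was 14581 bp from its nearest summit.

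The miR-35 family, needed in embryos, had no member within the limit among its 8 genes. The cluster of mir-35 to mir-41, in an intron of Y62F5A.9, had 1 summit upstream, of rank 824, 2767 bp from mir-35 and 3467 bp from mir-41. It was 362 bp upstream of the 5' end of Y62F5A.12. The remaining gene, mir-42, had no IDR summit within 8977 bp upstream, but a joint region of rank 5525 with a −log10 q of 3.09 lay at 276 bp. A joint region outside the IDR list was also upstream of the muscle gene mir-1, at 524 bp with rank 5081 and a −log10 q of 3.53. The neighbours mir-61 and mir-250 shared 1 such region, of rank 5483, at 129 and 270 bp. In all, 93 miRNA genes (35.6%) had the summit of a joint region within 1000 bp upstream, against 33.2% of protein-coding genes and 24% of all genes other than miRNAs. For 58 of the 93 there was no IDR summit there, so the count turns on where the list ends.

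**Figure D5:**
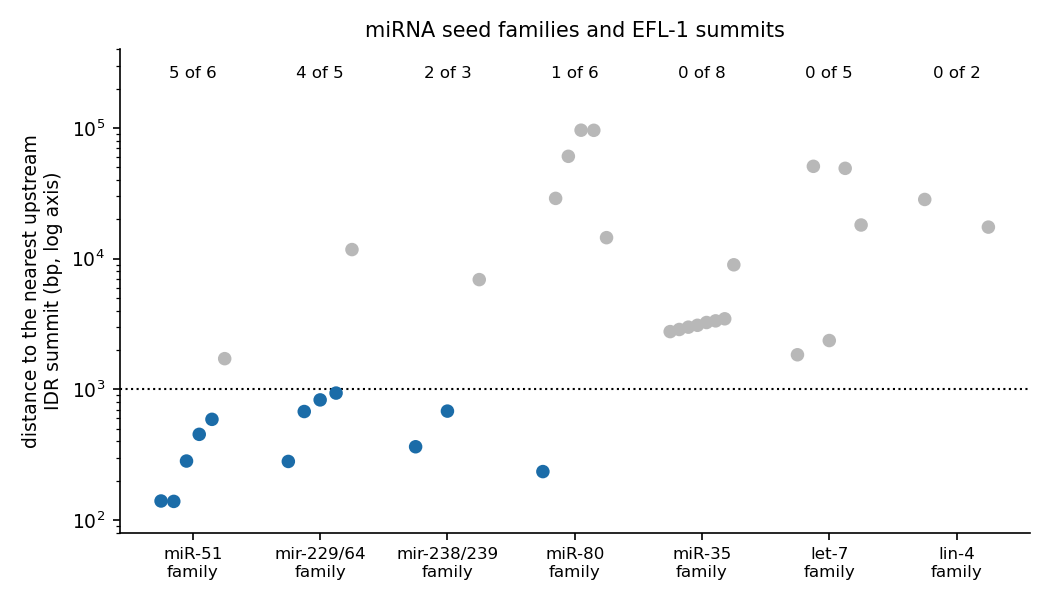
Distance in bp, on a log axis, from each miRNA gene of 7 seed families to its nearest upstream IDR summit; each point is 1 gene, blue within 1000 bp (dotted line) and grey beyond it. Counts above the points give genes within the limit, from 5 of 6 in the miR-51 family to 0 of 8 in the miR-35 family.

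Of the 35 genes 17 share a seed with another miRNA gene, and 109 of the miRNA genes do so overall. Besides the 2 families given first, the seed of mir-239a and mir-239b is also that of mir-238, whose nearest summit, 1823 bp downstream, is the mir-80 peak. The seed of mir-80 is found in 6 genes, and the other 5, mir-81, mir-82, mir-58b, mir-58c and mir-2209a, had no summit within the limit. The genes mir-81 and mir-82 were 28918 and 33200 bp from their nearest summits. The families of mir-35 and let-7 had 0 of 8 and 0 of 5, and that of lin-4 and mir-237 had 0 of 2. Since genes of a cluster share a summit, these counts are not of separate events.

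The 5 genes nearest to the limit from outside were mir-392 at 1008 bp, mir-353 at 1013 bp, mir-62 at 1056 bp, mir-4816 at 1104 bp and mir-8205 at 1133 bp. Each of these summits lay by a protein-coding 5' end, such as that of ugt-50, the host of mir-62, and of unc-59, the host of mir-8205. Of all miRNA genes, 9 overlapped an IDR peak by at least 1 base. They were mir-52, mir-53, mir-56, mir-2214, mir-5549 and mir-5595 of the 35, and mir-8209, mir-45 and mir-4934, whose summits lay 86, 205 and 55 bp downstream of the 5' end.

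The windows under the miRNA summits were searched for short patterns, as a description of their letters. An E2F pattern stood in 1 of the 31 windows (3.23%), against 437 of the 4534 windows of the whole list (9.64%). In windows of the same length 500 bp to each side it stood in 3 of 62 (4.84%) for the miRNA peaks and in 3.61% for the whole list. Matches could overlap, and a window was counted once. The 17 unshared windows had a median GC content of 51.7%, against 42.3% over all IDR peaks, and the 14 shared windows had 39.6%.

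After the windows had been read, TATAAA and GAGAGA were also counted, on either strand. TATAAA stood in 6 of the 31 windows (19.4%), against 12.9% of all IDR windows, and in 17.7% of the windows to the sides of miRNA peaks, against 20.8% for the whole list. The 6 were those of mir-52 (the nearer summit), mir-239a with mir-239b, mir-2214, mir-80, mir-58a and mir-5551. In each it read along the strand of the miRNA, except for mir-239b of the divergent pair. It lay 181 bp upstream of the mir-52 hairpin, 315 bp upstream of mir-80, 363 bp upstream of mir-239a and 375 bp upstream of mir-58a. GAGAGA stood in 19 of the 31 windows (61.3%), against 43.4% of all IDR windows, and in 16.1% of the windows to the sides, against 10.6% for the whole list. No test was made of these shares, and a match says only that the letters are there.

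The genes that make miRNAs and work with them were looked up in the same way. Of 16 such genes 9 (56.2%) had a summit within 1000 bp upstream, against 17.2% of protein-coding genes. Those of the nuclear step were split, with pash-1, the Drosha partner, beside a peak of rank 202 at 90 bp, and drsh-1 with its nearest summit 2952 bp upstream. The Dicer gene dcr-1 had one of rank 3545 at 92 bp. The Argonaute alg-2 had one of rank 4501 at 47 bp and alg-5 one of rank 1078 at 801 bp, while alg-1 had none within the limit. The strongest peaks beside these 16 genes were those of nhl-2 (rank 123, at 829 bp) and cgh-1 (rank 141, at 793 bp), both cofactors of the silencing complex. Whether the summits beside the 16 genes also lay by another gene's 5' end was not looked up. The others with a summit upstream were ain-1, a GW182 protein, dcs-1 and lin-28. Those without one within 1000 bp upstream were ain-2, ebax-1, xrn-2, paxt-1 and pup-2. On the downstream side, xrn-2 had a summit 69 bp from its 5' end (rank 4008) and ain-2 one at 730 bp (rank 2296). Another list held 10 protein-coding genes of developmental timing or otherwise linked to the let-7 and lin-4 families as targets. Whether each is a direct target was not examined. Of these 10 genes 3 (30%) had a summit upstream. They were lin-14 at 133 bp (rank 1480) and lin-28, also among the 16 genes, at 557 bp (rank 1525). The third, lin-46, had summits at 638 bp (rank 3982) and 850 bp (rank 1779). The genes of this list without one were lin-41, hbl-1, let-60, daf-12, lin-42, lin-29 and nhr-25.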

How the data were processed

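The authors had made EFL-1 peak lists on ce11 from 2 samples, 1 list for each replicate, a joint list and an IDR list, per the deposited description texts. The replicate lists came from each replicate's own alignments with a control, and the joint list from both. For the aligner, the caller and the IDR threshold, the sources used here give nothing. The signal value and the −log10 q value of each peak are the authors' own, as deposited. Signal was used to rank and compare peaks within a list, and is given for each replicate without rescaling. Lists on ce10 were not used.

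Genes came from Ensembl release 115 (WBcel235, the same build as ce11), sequences from the RefSeq assembly of that build. A miRNA gene inside a protein-coding gene and off its exons was called intronic, one overlapping no protein-coding gene intergenic. Distances, counts and Clopper-Pearson intervals (95%) were computed with Python 3.11.15, pandas 2.3.3 and SciPy 1.17.1. The distance step was tested on simulated positions. No test between groups was possible with 1 group. Named genes were all with a summit within 1000 bp upstream, the 5 just outside, those inside a peak and a list of known miRNA genes. The members, lists and limits were chosen with earlier results of these data known. Alternatives were other windows, stronger and longer lists, single replicates, cluster gaps and RefSeq 5' ends. The mature sequence of 1 gene is not reported here.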

Additional observations from a re-analysis of the deposited data

How the results depend on the processing

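Both the window and the list moved the counts. Within 2000 bp upstream there were 56 miRNA genes (21.5%), 25 of them intergenic, against 4393 protein-coding genes (22%). With the window placed 1000 bp downstream instead there were 15 miRNA genes, 7 intergenic and 7 intronic, and 522 protein-coding genes. In the stronger 2267 peaks of the IDR list there were 19 miRNA genes, 7 intergenic and 11 intronic, and 2138 protein-coding genes. With the 6596 joint regions of −log10 q over 2 there were 25 intergenic genes, against 13 with the IDR list, and 52 miRNA genes in all (19.9%), against 4096 protein-coding genes (20.5%). The order of the intronic and intergenic shares was the same in each of these. With the strongest 4534 regions of 1 replicate alone, without replicate 2 or without replicate 3, there were 36 miRNA genes, 14 intergenic and 21 intronic, and 33 or 34 of the 35 genes remained. No paired analysis was possible because there is 1 group and no result comes from a test between groups. Of the other alternatives, a 500 bp window gave 27 genes and RefSeq 5' ends gave 35, and joining clusters over 1000 or 10000 bp gave 30 or 28 loci. The unknown depth, the few members in each class and the lack of a primary transcript start for most miRNA genes limit what these counts can show.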
